A study of Arabidopsis thaliana with 11 samples.

Results

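PSAN, LHCB4.1, LHCB4.2 and LHCB4.3 are nuclear genes for proteins of the 2 photosystems. They were taken as the probe sets that the platform annotation names for 1 of these genes alone, which gave 4 probe sets for the 4 genes, 1 each. The 4 were among 22746 probe sets without controls, of which 13513 name a single gene, and all 4 passed the filter on low values that left 21886 probe sets for testing. In the RefSeq gene table they are AT5G64040 (PSAN), AT5G01530 (LHCB4.1), AT3G08940 (LHCB4.2) and AT2G40100 (LHCB4.3).

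PSAN encodes an extrinsic subunit on the lumen side of photosystem I, where plastocyanin delivers electrons. The LHCB4 genes encode CP29, a monomeric chlorophyll-binding antenna protein that sits between the core of photosystem II and its outer light-harvesting trimers. LHCB4.3 is a more diverged copy, also known as LHCB8. All 4 proteins are made in the cytosol and imported into the plastid. In darkness a seedling grows a long hypocotyl and keeps etioplasts without working photosystems, and brassinosteroids are among the hormones known to keep light-induced nuclear genes low in that state.

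RNA came from Arabidopsis seedlings grown in darkness for 4 days and was hybridised to 11 Affymetrix ATH1 arrays. The groups were the Col wild type on mock medium (3 arrays), Col on 0.5 µM brassinazole (BRZ, which blocks brassinosteroid synthesis; 3 arrays), the arf2 mutant on mock (3 arrays) and arf2 on 0.5 µM BRZ (2 arrays). arf2 plants lack normal function of ARF2, an auxin response factor, and the labels do not name the allele. The level of ARF2 itself was not analysed here. The labels call the arrays of a group independent biological replicates.

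The deposited gcRMA intensities did not share 1 level, which matters for small changes. The median log2 intensity of the tested probe sets lay between 5.93 and 6.20 on the Col mock arrays, where arrays 1 and 2 were the low ones, and between 6.09 and 6.28 on the other 8 arrays. Signal from 25S ribosomal RNA (a control probe set) lay at 173 to 263 on arf2 mock and at 33.6 to 131 on the remaining arrays. The 3′ minus 5′ difference of the actin controls ran from 3.53 to 4.56 on the log2 scale, highest on Col mock array 2. None of the markers listed for dark-grown or light-exposed seedlings had a probe set of its own name, so the dark-grown state was not checked on them. Of the root markers 2 of 10 (EXPA7 and EXPA18) and of the shoot apex and leaf markers 1 of 9 (CLV3) were measured, and their means over all arrays, 4.51, 4.52 and 4.09 on the log2 scale, were close to the filter limit of 4. Of the seed markers 1 of 12 was measured, the oleosin gene OLEO3, whose group means were 9.72 in Col mock, 9.63 in Col BRZ, 8.86 in arf2 mock and 9.56 in arf2 BRZ.

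PSAN rose with BRZ in the wild type. Its intensity was 1233, 1087 and 1176 on Col mock arrays 1, 2 and 3, and 1659, 1749 and 1806 on the Col BRZ arrays. Every Col BRZ array was above every Col mock array. In arf2 the gene read 1250, 1215 and 1148 on mock and 1325 and 1601 on BRZ. The arf2 BRZ arrays thus lay above all mock arrays of either genotype and below all Col BRZ arrays. Ordered by mean log2 intensity, the groups were Col mock (10.18 ± 0.09, SD, n = 3), arf2 mock (10.23 ± 0.06, n = 3), arf2 BRZ (10.51 ± 0.19, n = 2) and Col BRZ (10.76 ± 0.06, n = 3). Only the 2 mock groups overlapped among neighbours in that order.

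LHCB4.2 followed a similar order with more spread. The Col arrays gave 2873, 2677 and 3176 on mock and 3989, 4078 and 3778 on BRZ, again without overlap. On arf2 mock it read 2953 on array 3, 3141 on array 1 and 2767 on array 2, inside the Col mock range. The arf2 BRZ arrays were at opposite ends, with 2918 on array 1 and 4310 on array 2. The mean log2 intensities were 11.50 ± 0.12 in Col mock, 11.53 ± 0.09 in arf2 mock, 11.79 ± 0.40 in arf2 BRZ and 11.95 ± 0.06 in Col BRZ (SD). The arf2 BRZ range covered all of Col BRZ and part of both mock groups.

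LHCB4.1 had another order. Its Col mock arrays, at 2921, 2639 and 3078, were the lowest group, and its arf2 mock arrays, at 4031, 3523 and 4422, the highest. Col BRZ read 4129, 2992 and 3823 and arf2 BRZ read 3248 and 4116. The means were 11.49 ± 0.11 in Col mock, 11.82 ± 0.24 in Col BRZ, 11.84 ± 0.24 in arf2 BRZ and 11.96 ± 0.17 in arf2 mock (log2, SD). Each group overlapped its neighbour in that order, while Col mock and arf2 mock did not overlap.

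LHCB4.3 varied least. Its lowest array was 124.5 (arf2 BRZ array 2) and its highest 169.5 (arf2 mock array 1), a ratio of 1.36, against 1.66 for PSAN, 1.68 for LHCB4.1 and 1.61 for LHCB4.2 between their own lowest and highest arrays. In Col it read 139.1, 162.7 and 153.1 with mock treatment against 141.8, 148.5 and 137.2 with BRZ. In arf2 it read 169.5, 152.1 and 165.6 with mock treatment and 148.5 and 124.5 with BRZ. The mean log2 intensities were 7.09 ± 0.18 in arf2 BRZ, 7.15 ± 0.06 in Col BRZ, 7.24 ± 0.11 in Col mock and 7.34 ± 0.08 in arf2 mock (SD), and neighbours in that order overlapped. These levels rank groups within a gene only, since intensities of different probe sets are not on a common scale.

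**Figure D1:**
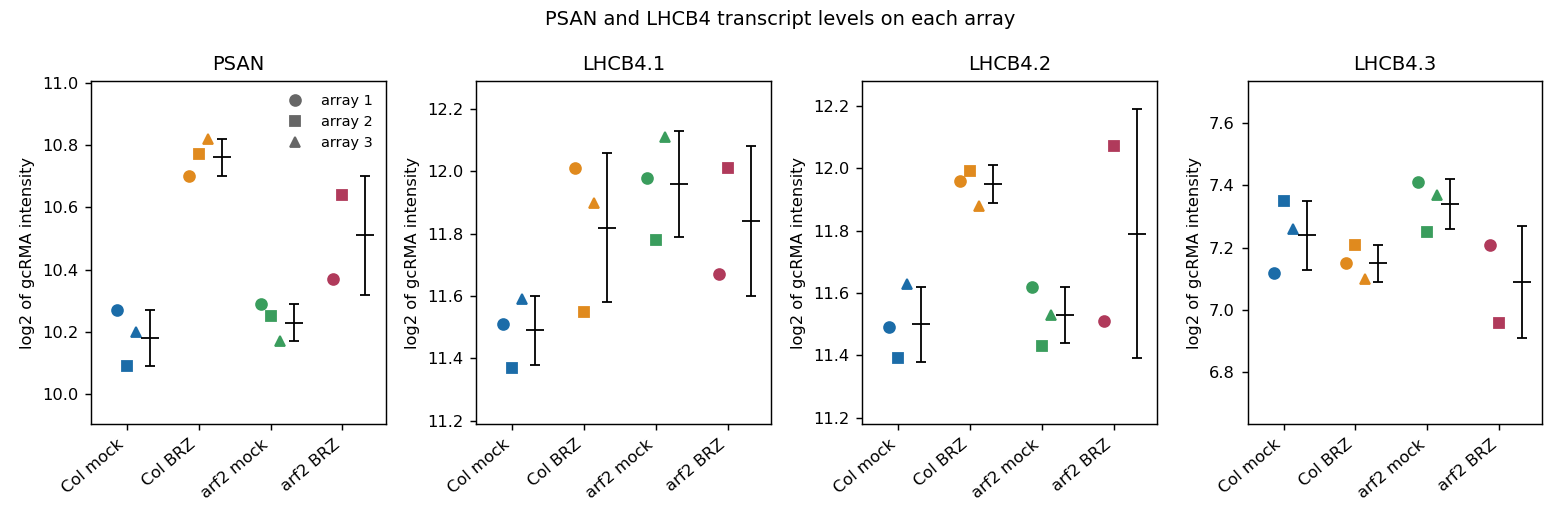
Log2 of the gcRMA intensity (vertical axis) of PSAN, LHCB4.1, LHCB4.2 and LHCB4.3 on each of the 11 arrays, by group (horizontal axis). Marker shapes give the array number, and black bars the group mean ± SD. All panels span the same log2 range. PSAN and LHCB4.2 are higher on all 3 Col BRZ arrays than on the 3 Col mock arrays, LHCB4.1 is higher on all 3 arf2 mock arrays than on Col mock, and the 2 arf2 BRZ arrays lie apart for LHCB4.2 (2918 and 4310).

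The first comparison was BRZ with mock in Col, which asks what blocked hormone synthesis changes in wild-type seedlings. PSAN rose 1.49-fold (log2 change 0.58 ± 0.10 SE, 95% interval 0.37 to 0.79, 3 arrays against 3, limma adjusted p 0.00366). It was the 1 of 4 members called, where 8.94% of all tested probe sets were called. LHCB4.2 had a change of 0.44 ± 0.13 (1.36-fold, interval 0.15 to 0.74) that did not pass (adjusted p 0.0606). LHCB4.1 had 0.33 ± 0.14 (1.26-fold, interval 0.02 to 0.64, adjusted p 0.164), and LHCB4.3 had -0.09 ± 0.10 (interval -0.31 to 0.13, adjusted p 0.587). The median over the 4 members was 0.39, beside 0.06 over all tested probe sets. Groups did not overlap for PSAN and LHCB4.2, 2 of 4 members, beside 27.6% of all tested probe sets, and an exact permutation test of either gene gave p = 0.1, the smallest that 3 arrays against 3 allow.

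The low median of Col mock arrays 1 and 2 moves with this comparison. For PSAN, Col mock array 3, whose median was like that of the BRZ arrays, read 1176, between the other mock arrays. PSAN changed by 0.56 without Col mock arrays 1 and 2 (adjusted p 0.045) and by 0.40 with equal array medians (adjusted p 0.0388). It stayed called with each of the 11 arrays left out in turn (0.53 to 0.62, adjusted p 0.00383 to 0.0242). For LHCB4.2 the change was 0.31 without both low arrays (adjusted p 0.622) and 0.26 with equal medians (adjusted p 0.195). LHCB4.2 became called when Col mock array 3 was left out (adjusted p 0.0301) and when either arf2 BRZ array was (adjusted p 0.0221 each). LHCB4.1 had 0.47 without Col BRZ array 2, its lowest BRZ array (adjusted p 0.0881), 0.23 without both low Col mock arrays (adjusted p 0.85) and 0.15 with equal medians (adjusted p 0.497).

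The second comparison put the same question to arf2, where 0 of 4 members were called by limma, beside 5.81% of all tested probe sets. At an unadjusted p under 0.05 there were PSAN, with 0.27 ± 0.11 (1.21-fold, interval 0.04 to 0.51, 2 arrays against 3, adjusted p 0.203), and LHCB4.3, with -0.25 ± 0.11 (interval -0.50 to -0.01, adjusted p 0.261). For both the groups did not overlap, as for 39.8% of tested probe sets in this comparison. The exact permutation p was 0.2 for each, the smallest that 2 arrays against 3 allow. LHCB4.2 had 0.27 ± 0.15 (adjusted p 0.417) and LHCB4.1 -0.12 ± 0.16 (interval -0.47 to 0.23, adjusted p 0.769). The 2 arf2 BRZ arrays disagreed on these genes. With array 2 alone, LHCB4.2 had a change of 0.55 (adjusted p 0.0779), and with array 1 alone -0.02 (adjusted p 0.99). PSAN had 0.41 with array 2 alone (adjusted p 0.16) and 0.14 with array 1 alone (adjusted p 0.826). LHCB4.3 had -0.38 with array 2 alone (adjusted p 0.235) and -0.13 with array 1 alone (adjusted p 0.868). In these fits the lone array is assumed to vary like the other groups.

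**Figure D2:**
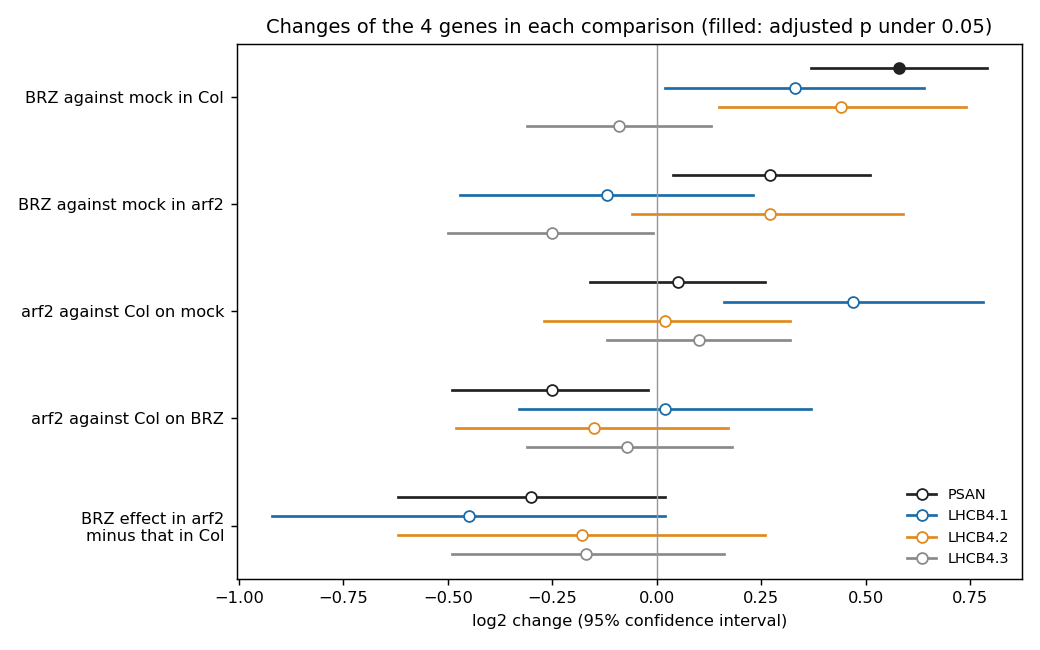
Log2 change (horizontal axis) of each gene in the 5 comparisons (vertical axis), as points with 95% confidence intervals from limma. A filled point has an adjusted p under 0.05. PSAN with BRZ in Col (0.58, interval 0.37 to 0.79) is the 1 filled point of 20. The 4 points for the interaction lie between -0.45 and -0.17, with intervals that include 0.

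The third comparison was arf2 with Col on mock, that is, what the mutation changes while brassinosteroids are made. LHCB4.1 had the largest value among the members, 0.47 ± 0.14 (1.38-fold higher in arf2, interval 0.16 to 0.78, 3 arrays against 3), which did not pass (adjusted p 0.0743). It was called with trended, robust variances (adjusted p 0.037) and with a filter at a log2 of 6 (adjusted p 0.0448). It was not called with equal array medians (0.32, adjusted p 0.246) or with array weights (0.41, adjusted p 0.2). In this comparison 0 of 4 members were called by limma, beside 7.35% of all probe sets, and LHCB4.1 was the 1 with an unadjusted p under 0.05 (0.00691). It was also the 1 whose groups did not overlap, as for 20.9% of all probe sets (exact permutation p 0.1). PSAN, LHCB4.2 and LHCB4.3 had changes of 0.05 (interval -0.16 to 0.26), 0.02 (interval -0.27 to 0.32) and 0.10 (interval -0.12 to 0.32).

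On the arrays of this comparison 25S rRNA was also higher in arf2 (173 to 263 against 59.7 to 95.9), OLEO3 was lower by limma (-0.86 ± 0.10, adjusted p 0.000317), and their part in the LHCB4.1 value was not tested. Col mock array 2, the lowest for LHCB4.1, was also the one with the lowest median. The LHCB4.1 difference was 0.37 without Col mock arrays 1 and 2 (adjusted p 0.436). It was 0.33 when the lowest-median array of each mock group was left out, Col array 2 and arf2 array 3 (adjusted p 0.285), and 0.29 with all 3 left out (adjusted p 0.556).

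The difference between LHCB4.1 and LHCB4.2 on the same array removes a log2 shift that both probe sets share, but not one that varies with intensity. It was computed after the values above had been seen. LHCB4.1 minus LHCB4.2 was 0.02, -0.02 and -0.05 for Col mock and 0.36, 0.35 and 0.58 on arf2 mock (log2). All arf2 mock arrays were above all Col mock arrays, a change of 0.44 (exact permutation p 0.1, the smallest possible). On Col BRZ the difference was 0.05, -0.45 and 0.02, and on arf2 BRZ 0.15 and -0.07, so the BRZ groups of both genotypes overlapped. In arf2 the difference was lower on both BRZ arrays than on all mock arrays (mean 0.04 against 0.43, exact permutation p 0.2). LHCB4.1 and LHCB4.2 are close paralogs, and hybridisation of one transcript to the probes of the other was not tested.

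LHCB4.2 minus LHCB4.3 separated the media in Col, with 4.37, 4.04 and 4.37 on mock and 4.81, 4.78 and 4.78 on BRZ. The mean difference grew by 0.53 (exact permutation p 0.1). In arf2 it was 4.21, 4.19 and 4.16 on mock. It was 5.11 on BRZ array 2, and on BRZ array 1 it was above the arf2 mock arrays but below the higher Col mock ones (change in the mean 0.52, exact permutation p 0.2). The 3 paralog pairs and the 4 comparisons of groups made 12 tests in all, and none can pass at these group sizes. The smallest possible p is 0.1 for 3 arrays against 3 and 0.2 for 2 against 3. The share of other pairs of probe sets whose groups do not overlap was not computed. LHCB4.2 and LHCB4.3 lie far apart in intensity, and their difference need not cancel the level of the array. With BRZ in Col, quantile normalization moved LHCB4.2 from 0.44 to 0.37 and LHCB4.3 from -0.09 to -0.26.

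**Figure D3:**
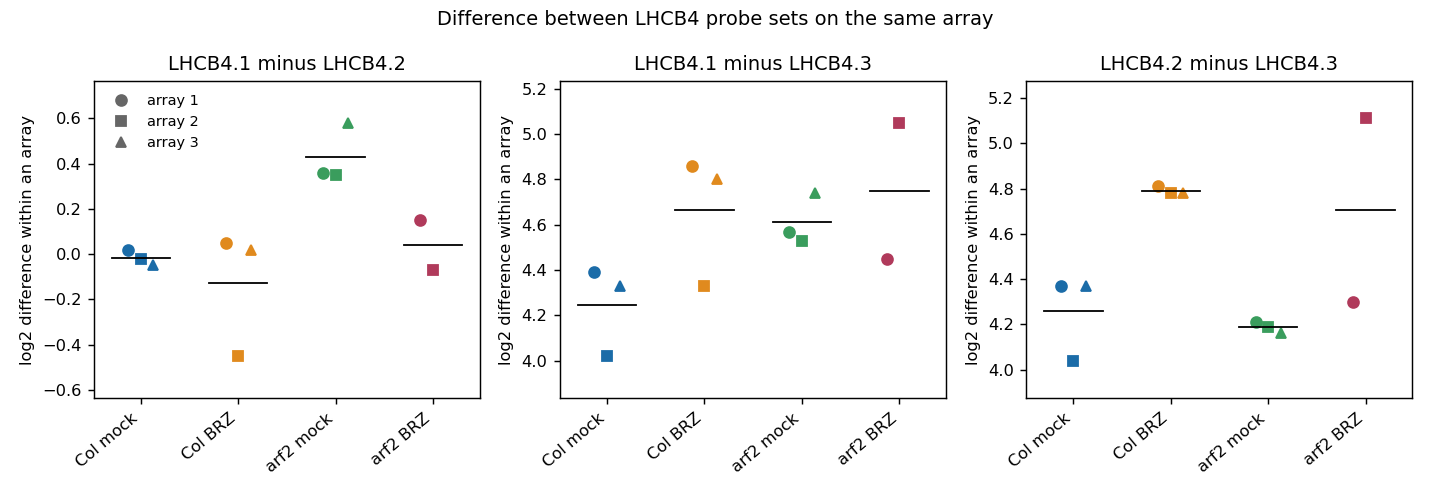
Difference in log2 intensity (vertical axis) between 2 LHCB4 probe sets on the same array, by group (horizontal axis). Marker shapes give the array number, and lines the group means. LHCB4.1 minus LHCB4.2 is 0.35 to 0.58 on arf2 mock and -0.05 to 0.02 on Col mock. LHCB4.2 minus LHCB4.3 is 4.78 to 4.81 on Col BRZ and 4.04 to 4.37 on Col mock.

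The fourth comparison was arf2 with Col on BRZ, where 0.617% of all probe sets and 0 of 4 members were called by limma. PSAN had the lowest value, -0.25 ± 0.11 (interval -0.49 to -0.02, 2 arrays against 3, adjusted p 0.469), and was the 1 member with an unadjusted p under 0.05 (0.0379). Both arf2 BRZ arrays were below the 3 Col BRZ arrays for this gene, as groups did not overlap for 33.2% of all probe sets (exact permutation p 0.2). LHCB4.2 had -0.15 ± 0.15 (interval -0.48 to 0.17), LHCB4.3 -0.07 ± 0.11 (interval -0.31 to 0.18) and LHCB4.1 0.02 ± 0.16 (interval -0.33 to 0.37). The PSAN difference was -0.39 without arf2 BRZ array 2 and -0.12 without array 1.

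The interaction sets the response of arf2 to BRZ against that of Col. limma called 0 of 4 members, beside 0.841% of all probe sets, and no member had an unadjusted p under 0.05. All 4 values were below 0, that is, a lower BRZ value in arf2. They were -0.45 ± 0.21 for LHCB4.1 (interval -0.92 to 0.02, adjusted p 0.559), -0.30 ± 0.15 for PSAN (interval -0.62 to 0.02, adjusted p 0.565), -0.18 ± 0.20 for LHCB4.2 and -0.17 ± 0.15 for LHCB4.3. The median over the members was -0.24 and over all tested probe sets -0.05. So the PSAN call in Col and its absence in arf2 do not show a genotype difference. All 4 values moved with the arf2 BRZ array left out. Without array 1 the LHCB4.2 value turned to 0.10, and the values were -0.17 for PSAN, -0.28 for LHCB4.1 and -0.29 for LHCB4.3. Without array 2 they were -0.46 for LHCB4.2, -0.44 for PSAN, -0.62 for LHCB4.1 and -0.04 for LHCB4.3.

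**Figure D4:**
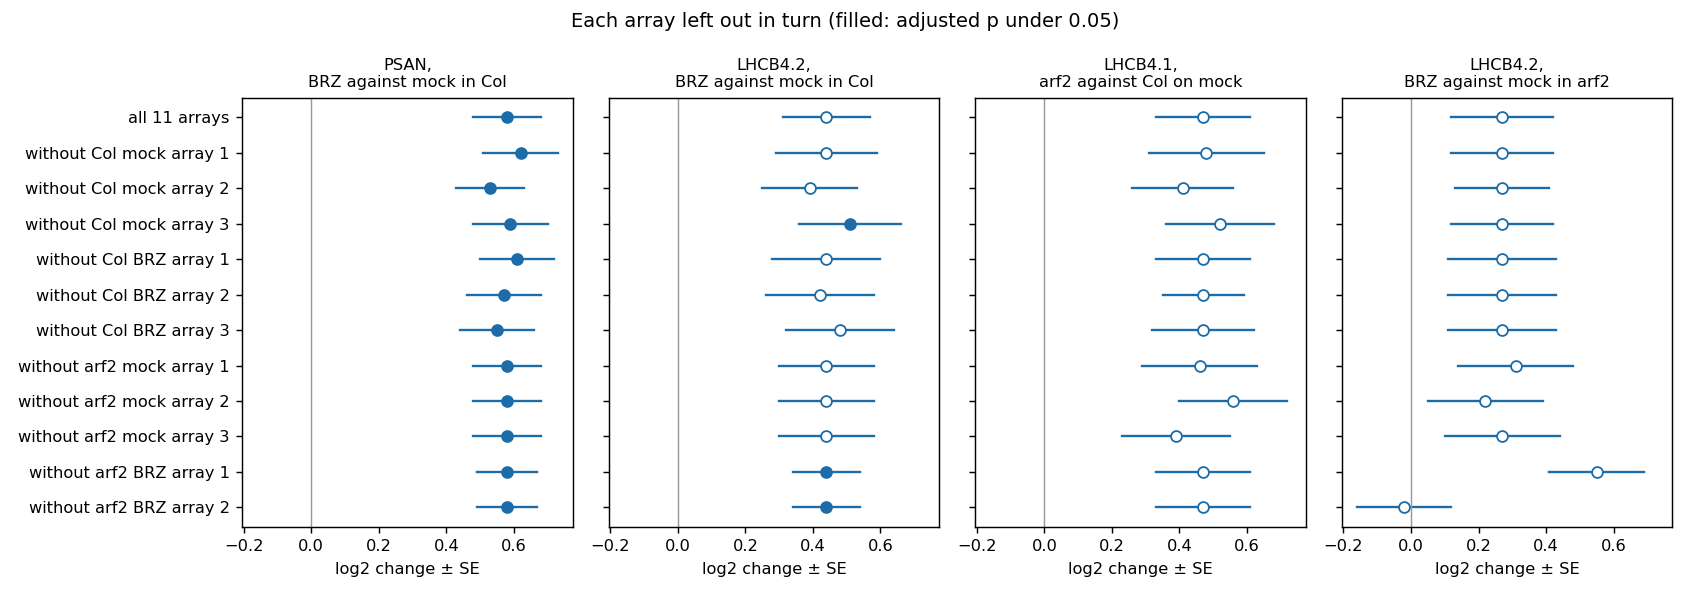
Log2 change ± SE (horizontal axis) of 4 results with all 11 arrays and with each array left out in turn (vertical axis). Filled points have an adjusted p under 0.05. PSAN with BRZ in Col stays between 0.53 and 0.62 and is filled throughout. LHCB4.2 with BRZ in arf2 is 0.55 without arf2 BRZ array 1 and -0.02 without array 2.

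The genes around the members in photosynthesis could be measured in part. Of 134 other gene names in 9 lists of nuclear genes (subunits and antennae of both photosystems, thylakoid electron transport and ATP synthase, Calvin cycle, chlorophyll and carotenoid synthesis, light signalling), 19 had a tested probe set of their own. None of the 19 was an antenna gene, and 7 were genes of chlorophyll synthesis. The photosystem I antenna list had 0 of 6 genes tested, and the 3 tested photosystem II antenna genes were the LHCB4 members. With BRZ in Col 1 of these 19 rose, 0 fell and 18 did not pass, with a median of 0.14, beside 8.94% called and a median of 0.06 over all tested probe sets. The one was CHLM, the methyltransferase of magnesium protoporphyrin in chlorophyll synthesis (0.51 ± 0.11, adjusted p 0.0174). CHLM was not called when Col mock array 1 was left out (adjusted p 0.0674), nor without any one Col BRZ array (0.0605 to 0.0622), with equal medians (0.0756) or without both low Col mock arrays (0.358). Of the nearest relatives by complex, PSBW of photosystem II had 0.63 (adjusted p 0.0583), PSBY of photosystem II 0.33 (adjusted p 0.174) and PSAE1 of photosystem I 0.26 (adjusted p 0.284). The count of 19 was 0 without Col mock array 1 or any Col BRZ array and 3 without Col mock array 3.

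In arf2 with BRZ 1 of the 19 fell, 0 rose and 18 did not pass, beside 5.81% of all tested probe sets called. The one was PRK, the phosphoribulokinase of the Calvin cycle (-0.77 ± 0.17, adjusted p 0.0204). PRK was not called when arf2 mock array 1 (adjusted p 0.0687), arf2 mock array 3 (0.0704) or arf2 BRZ array 1 (0.25) was left out. Between the genotypes on mock PSBY was higher in arf2 (0.60, adjusted p 0.0289) and PSAE1 (-0.59, adjusted p 0.0352) and the protochlorophyllide oxidoreductase gene PORB (-0.68, adjusted p 0.0183) were lower. The other 16 did not pass, beside 7.35% of all tested probe sets called. The second subunit gene tested for each photosystem was not called, with 0.05 for PSAN (adjusted p 0.838) and -0.24 for PSBW (adjusted p 0.525). Over 25 alternatives the PSBY call was lost in 13, the PSAE1 call in 14 and the PORB call in 4. With equal medians 0 of the 19 were called higher in arf2 and 3 lower. The PSBY call was lost without Col mock array 1 or 2, Col BRZ array 1 or any arf2 mock array (adjusted p 0.0504 to 0.0996). The PSAE1 call was lost without Col mock array 1 or 3, any Col BRZ array or any arf2 mock array (0.0549 to 0.133), and the PORB call without arf2 mock array 1 (0.0798) or array 2 (0.0681). Between the genotypes on BRZ and in the interaction 0 of the 19 were called by limma, beside 0.617% and 0.841% of all tested probe sets. With array weights 3 of the 19 were called lower in arf2 on BRZ, beside 4.13% of all tested probe sets called.

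The plastid genome encodes further subunits of both photosystems, and all 20 plastid genes listed were measured. With BRZ in Col 5 of the 20 rose and 0 fell, with a median of 0.53 and 19 values above 0, beside 8.94% called in either direction and a median of 0.06 over all tested probe sets. The count was 0 without Col mock array 1 or Col BRZ array 3, 9 without Col mock array 3, and 3 without Col BRZ array 1 or arf2 mock array 2. In arf2 with BRZ 0 of 20 were called by limma (median 0.15, 13 values above 0), beside 5.81% of all tested probe sets. Between the genotypes on BRZ 0 of 20 were called (median -0.69, 0 values above 0), beside 0.617% and a median of 0.01 over all tested probe sets. That count depended on the setting. With array weights 8 of 20 were called lower in arf2, beside 4.13% of all tested probe sets called. With only the 2 compared groups in the fit it was 5, beside 1.7%, and with equal array medians 1, beside 0.708%. It stayed 0 with quantile normalization and with the replicate block. The interaction, which tests the difference between the BRZ effects in arf2 and Col, also called 0 of 20 (median -0.41, 1 value above 0), beside 0.841% of all tested probe sets.

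**Figure D5:**
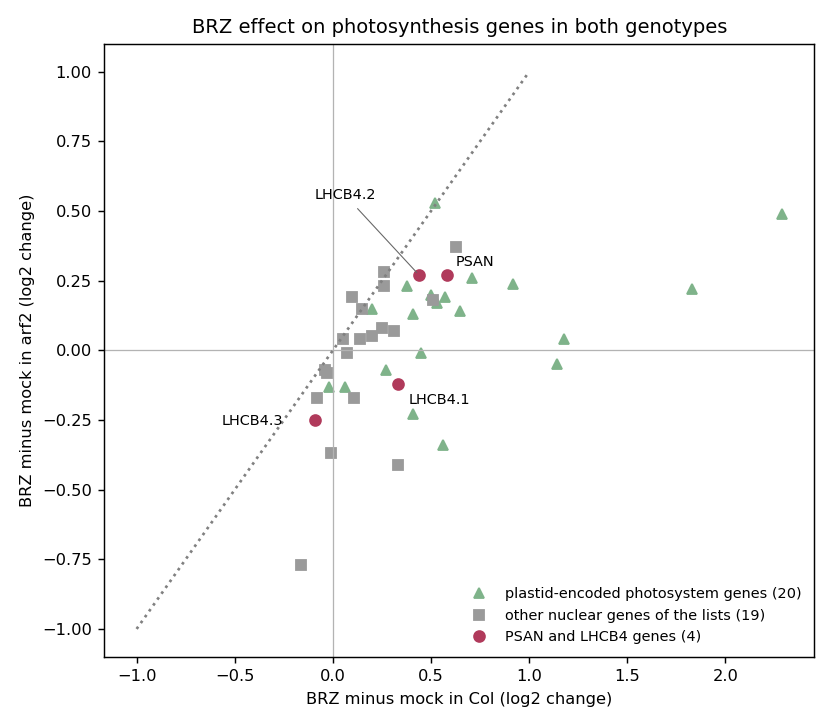
Log2 change with BRZ in Col (horizontal axis) and in arf2 (vertical axis) for the 4 members (circles), the 19 other nuclear genes of the photosynthesis lists (squares) and 20 plastid-encoded photosystem genes (triangles). The dotted line marks equal changes. PSAN lies at 0.58 and 0.27, LHCB4.2 at 0.44 and 0.27, LHCB4.1 at 0.33 and -0.12, and LHCB4.3 at -0.09 and -0.25.

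Likeness of patterns was measured as Pearson's r of log2 intensity over the 11 arrays, which share 4 groups and the levels of the arrays. It is given as a description. PSAN and LHCB4.2 had r = 0.90, so LHCB4.2 was 40th of 12852 named probe sets in likeness to PSAN, and PSAN was 17th in likeness to LHCB4.2. LHCB4.1 had r = 0.30 with PSAN, where it ranked 4813th in likeness, and 0.40 with its paralog LHCB4.2, where it ranked 3981st. LHCB4.3 had -0.66 with PSAN, -0.64 with LHCB4.2 and -0.11 with LHCB4.1. By likeness LHCB4.2 was thus closer to the photosystem I gene PSAN than to either of its paralogs.

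Among named probe sets whose group means spanned at least 0.3, those most like PSAN were AT4G15700 (r = 0.975), AT2G44120 (0.960), AT3G24120 (0.957), AT5G02160 (0.947) and AT5G26731 (0.940). These 5, and those named below, were picked for likeness on the same arrays. Directions that they share with their member therefore follow from the choice and are not separate evidence. With BRZ in Col the 5 most like PSAN had changes from 0.31 for AT2G44120 to 1.61 for AT4G15700. AT2G44120 (0.941) and AT3G24120 (0.935) were also among the 5 most like LHCB4.2, with AT3G23700 (0.941), AT5G24490 (0.939) and AT5G02450 (0.927). Most like LHCB4.1 were AT5G66180 (0.902), HPR (0.888), the hydroxypyruvate reductase of photorespiration, CcdA (0.872), AT2G15880 (0.863) and AT1G09910 (0.858). All 5 had a positive arf2 minus Col value on mock, from 0.31 for CcdA to 0.67 for AT2G15880. Most like LHCB4.3 were AT3G60490 (0.900), AT2G39160 (0.894), AT3G15670 (0.885), the dehydrin gene LEA (0.883) and AT5G58750 (0.872), all with a negative BRZ value in arf2, from -0.89 for AT3G15670 to -0.40 for AT5G58750.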

How the data were processed

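The submitters ran quality control with simpleaffy and estimated expression with gcRMA, per the labels' design text and the submitters' processing notes, with no version given; they left out 1 arf2 BRZ array. The deposited values are gcRMA intensity values per probe set, and no array CEL files were used here. Their log2 was taken. Of 22810 probe sets 64 controls were left out, and 21886 exceeded a log2 of 4 on at least 2 arrays and were tested. Arrays give no counts, and their number limits the precision.

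All 11 arrays were fitted in limma 3.58.1 (R 4.3.3) with 1 mean per group, and two-sided moderated p-values were adjusted by Benjamini-Hochberg over all tested probe sets. A probe set was called when that p was under 0.05. Intervals are at 95%. Exact permutation tests are two-sided (scipy 1.17.1). The fit was run on simulated arrays with independent noise and equal levels, which cannot speak to shared deviations or unequal medians in these arrays. Same-numbered arrays of different groups, 15 pairs, correlated between -0.586 and 0.136 after subtraction of group means, with 3 pairs over 0.1. Col mock array 2 and arf2 mock array 3, each the lowest in median of its group, had r = 0.6. Deviations in groups of 2 or 3 arrays sum to 0, so this check cannot show or exclude a shared batch. The numbers were not taken as pairs, and a replicate block was run as an alternative. Gene names came from the platform annotation and the RefSeq table of TAIR10.1; no sequence is printed.

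The members, the lists and the alternatives were chosen with earlier results of these data known. Named genes were the 4 members, listed genes called in a comparison, the relatives by complex (named after their values were seen), the measured markers, and per member the 5 probe sets most like it.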

Additional observations from a re-analysis of the deposited data

Results flagged for a closer look

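The BRZ effect on OLEO3, an oleosin gene measured as a seed marker, differed between the genotypes by limma's test of the difference (0.79 ± 0.15 on the log2 scale, adjusted p 0.0336). The change with BRZ was 0.70 ± 0.11 in arf2 (adjusted p 0.00322) and -0.09 ± 0.10 in Col (adjusted p 0.581). The difference was 0.73 to 0.99 over 24 alternatives and was not called under 9 of them: without Col mock array 1 (adjusted p 0.0742), without arf2 BRZ array 1 (0.18) or array 2 (0.119), without Col BRZ array 1 (0.0796), array 2 (0.0846) or array 3 (0.113), without arf2 mock array 1 (0.0985) or array 2 (0.0751), and with the replicate block (0.1). No such difference was called for PSAN or the LHCB4 genes.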

How the results depend on the processing

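The 20 results of the members gave 512 values under the alternatives, of which 483 kept direction and side of the threshold. PSAN with BRZ in Col was called in every fit run (0.40 to 0.62); the exact permutation test (0.58, p 0.1) cannot pass at this group size. With the replicate block its change was 0.58 (adjusted p 0.0158), and the block changed no member's call. Calls lost with it were PSAE1 and PSBY between genotypes on mock, PRK with BRZ in arf2, psbB and psbD with BRZ in Col, and the OLEO3 interaction (adjusted p 0.0587 to 0.1). LHCB4.2 with BRZ in Col became called at 0.44 with filters at 5 and 6 (adjusted p 0.0467 and 0.0369) and with trended, robust variances (0.0292), and ran from 0.39 to 0.51 with 1 array left out. LHCB4.1 between genotypes on mock became called at 0.47 with the filter at 6 and with trended, robust variances. The filters change how many probe sets are adjusted over.

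The member results whose signs turned were uncalled. Between genotypes on mock, equal medians turned PSAN to -0.09, LHCB4.2 to -0.12 and LHCB4.3 to -0.04. Quantile normalization turned LHCB4.2 to -0.01 and LHCB4.3 to -0.07. LHCB4.2 was -0.11 without Col mock arrays 1 and 2, -0.04 without the lowest-median array of each mock group, and -0.11 without all 3. On BRZ, LHCB4.1 between genotypes was -0.03 with equal medians and -0.01 with array weights. The cause was not tested.

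With 1 array left out, the genotype difference on mock ran from -0.00 to 0.09 for PSAN and from -0.03 to 0.09 for LHCB4.2. The difference on BRZ ran from -0.15 to 0.19 for LHCB4.1, -0.44 to 0.13 for LHCB4.2 and -0.19 to 0.06 for LHCB4.3. BRZ in arf2 ran from -0.29 to 0.05 for LHCB4.1 and -0.02 to 0.55 for LHCB4.2, and the LHCB4.2 interaction from -0.46 to 0.10. LHCB4.1 minus LHCB4.2 with BRZ in Col, -0.11, ran from -0.20 to 0.05, the latter without Col BRZ array 2. The share of all probe sets called over the alternatives ran from 3.11% to 23.3% for BRZ in Col, 2.3% to 12.3% for BRZ in arf2, 3.03% to 15.2% between genotypes on mock, 0.224% to 4.13% on BRZ and 0.284% to 2.05% for the interaction, beside the shares printed above.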
